A study of Mus musculus with 12 samples.

Results

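Gene expression in mouse testis was compared between 3 libraries labelled busulfan and 3 labelled control, 6 of the 12 RNA sequencing libraries of the series. Busulfan is an alkylating drug that crosslinks DNA and kills dividing germ cells, above all spermatogonia. All libraries came from frozen testis of ICR mice, an outbred strain, aged 8 weeks. The busulfan group received busulfan with no further agent named, and the control label names no vehicle. The other 6 libraries are labelled busulfan plus L.J. at 10 mg/kg and L.J. at 10 mg/kg, 3 of each, and were used here for the estimate of the spread and for 1 comparison at the end. The labels do not explain L.J., and the series text speaks of FMT without explaining it. Neither the busulfan dose nor the interval until the testes were taken is stated in the labels. All genes with at least 1 FPKM in at least 3 of the 12 libraries were taken, 14675 of the 21004 in the deposited table. FPKM is the number of fragments scaled to the length of the transcript and to the mapped fragments of the library. Nothing in the labels says that libraries of 1 group came from different mice, so the p-values reflect only how much these samples vary, and part of that variation may be technical. In bulk tissue, fewer cells of a type and less RNA per cell cannot be told apart.

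Spermatogonia divide by mitosis, spermatocytes pass through meiosis, and the resulting round spermatids elongate into sperm. Elongation replaces the histones by transition proteins and then by protamines, builds the tail around a microtubule core, and sheds the cytoplasm. Transcription stops on the way, so many late mRNAs are made early and stored with RNA-binding proteins. Sertoli cells support the germ cells inside the tubule, and Leydig cells between the tubules make testosterone.

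The tissue label was checked on 3 defining genes. Tnp1 of spermatids, Inha of Sertoli cells and Insl3 of Leydig cells had at least 230.7, 29.26 and 720.8 FPKM in each of the 6 libraries. No gene in the table marks the drug itself, so the treatment label could not be checked directly. Transcripts of the latest germ cells were higher in the libraries labelled busulfan, a drug that depletes germ cells. The interval after the drug is not stated, so these transcripts cannot check the labels either. Whether the labels are correct was not tested. Both groups are therefore called by the labels of their libraries, and every direction is that of the libraries as labelled.

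In all, 9350 of 14675 genes (63.7%) passed an adjusted p of 0.05 in limma's linear model. Of all genes tested, 12.4% were higher in busulfan libraries and 51.4% were lower, and the groups did not overlap for 76.8%. These shares rest on the scaling between libraries. Over all genes the median log2 change equalled -0.51 for the deposited values, -0.16 after quantile normalization, 0.05 after scaling to the median and 0.97 after scaling to Sertoli markers. A list is therefore given with its median relative to that of all genes, which neither of the last 2 scalings can change. A gene called higher under each of the 4 scalings is called higher in all scalings, and 11.6% of genes met this. Of all genes, 8.99% were lower as deposited and also after quantile normalization and median scaling, and under Sertoli scaling 2 genes in all were called lower. Without each of the 12 libraries in turn, 37.6% of genes stayed past the threshold, 8.73% higher and 28.9% lower. The larger changes lay on the higher side: among these lasting calls, 336 were higher by at least 2 log2 units and 27 were lower by as much, and 58 were higher by at least 3 and 0 lower.

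The libraries themselves differed in how their mRNA was spread over genes. Transcripts of elongating spermatids, a list of 28 tested genes, took 9.26%, 10.8% and 10.6% of the FPKM sum in busulfan libraries, against 1.35%, 3.11% and 0.995% in control libraries. Control replicate 2 was the control library nearest to the busulfan libraries for 83.4% of the genes called higher and for 75.8% of those called lower. Control replicate 3 carried the most transcript of the epididymis, the duct beside the testis. Its list of 21 markers, of which 7 passed the filter, summed to 309, 331 and 481 FPKM in busulfan libraries and to 948, 481 and 1625 FPKM in control libraries. The sums rest on the most abundant markers. The log2 median of the 7, minus that of all genes, was -0.96, -1.06 and -0.81 in busulfan libraries. In control libraries it was -1.80, 0.64 and 3.03, which puts control replicate 1 lowest. Of the 7 tested, 2 were higher, 4 were lower and 1 was not called. The part of these differences in the results was not tested, but calls are marked below where 1 library decides them.

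**Figure D1:**
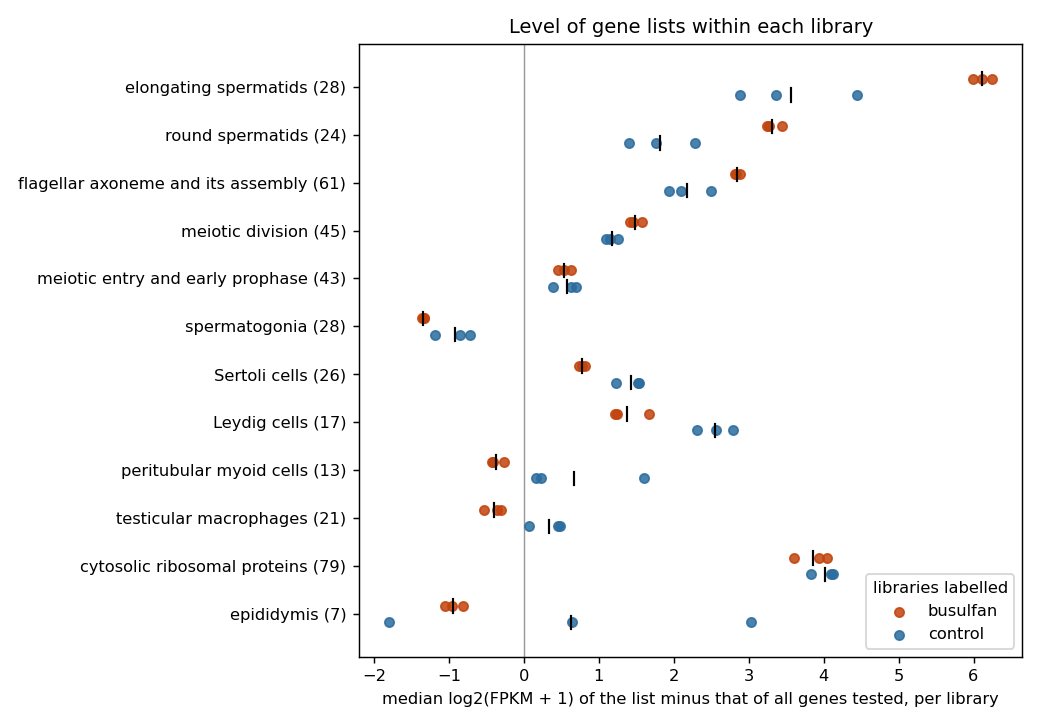
Median log2(FPKM + 1) of each gene list minus the median of all genes tested, on the x axis, for each of the 3 busulfan libraries (orange) and 3 control libraries (blue), with black lines at the group means and the number of tested genes in brackets. Elongating spermatid genes lie between 5.99 and 6.25 in busulfan libraries and between 2.88 and 4.45 in control libraries, while the Sertoli and Leydig lists lie lower in busulfan libraries and the list of meiotic entry overlaps.

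The promoters of spermatid genes carry sites for CREM, a transcription factor of the cyclic AMP response family that switches on many genes after meiosis. The stretches of 150 bases before the transcription start are shown for 5 genes that were higher in all scalings, because 4 of them hold a letter sequence that was more frequent among the higher genes. They are read in the direction of transcription, from RefSeq on GRCm38.p6, the assembly of mm10. Capitals mark TGATGTCA, or the same on the other strand, TGACATCA, and in Prm1 TGACTTCA.
Tnp1 (chr1:73015900-73016049, minus strand): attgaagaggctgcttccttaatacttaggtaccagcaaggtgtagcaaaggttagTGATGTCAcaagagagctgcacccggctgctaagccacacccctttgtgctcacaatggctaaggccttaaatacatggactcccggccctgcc
Gapdhs (chr7:30743682-30743831, minus strand): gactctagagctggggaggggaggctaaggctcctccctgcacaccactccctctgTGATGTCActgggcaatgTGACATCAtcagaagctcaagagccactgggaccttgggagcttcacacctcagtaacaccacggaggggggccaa
Hmgb4 (chr4:128260896-128261045, minus strand): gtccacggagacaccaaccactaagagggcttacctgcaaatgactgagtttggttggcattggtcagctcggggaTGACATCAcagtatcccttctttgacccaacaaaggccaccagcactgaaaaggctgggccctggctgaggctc
Trp53tg5 (chr2:164473725-164473874, minus strand): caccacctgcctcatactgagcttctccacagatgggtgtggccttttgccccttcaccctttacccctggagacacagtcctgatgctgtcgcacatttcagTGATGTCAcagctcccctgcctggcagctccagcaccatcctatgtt
Prm1 (chr16:10796824-10796973, minus strand): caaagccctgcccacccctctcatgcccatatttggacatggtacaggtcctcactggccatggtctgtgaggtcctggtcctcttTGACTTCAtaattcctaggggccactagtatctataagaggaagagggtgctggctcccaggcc

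The consensus CRE, TGACGTCA, was no more frequent in the promoters of the genes that were higher. It was searched in windows from 250 bases before to 50 after the start, which the RefSeq table gives for 11680 tested genes. It lay in 3.33% of genes higher in all scalings and in 3.3% of all tested genes. Its core, TGACG on either strand, which every full site contains, lay in 26.6% of genes higher in all scalings, in 19.3% of those higher by at least 2 log2 units and in 32% of all. TGATGTCA on either strand ran the other way. It lay in 10.8% of the 1352 genes higher in all scalings, in 18.6% of the 295 higher by at least 2 log2 units and in 4.14% of all tested genes. Among genes lower after 3 scalings it lay in 1.59%. TGACTTCA followed the same order, with 4.75% of genes higher by at least 2 log2 units and 1.44% of all. Both of these forms were picked after the promoters of spermatid genes had been read, so their shares describe these genes and test nothing. A match of letters is not a bound site.

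TGATGTCA lay near the start of the genes that were higher. In 374 promoters of genes higher by at least 2 log2 units, 7.75% held it from 100 to 50 bases before the start and 6.95% in the last 50 bases before it. In all 14797 promoters the shares were 1.21% and 1.05%. Farther out, from 250 to 200 bases before the start, they were 0.535% in promoters of the higher genes and 0.243% in all. Of 23 elongating spermatid genes with a promoter, 6 held it: Tnp1, Gapdhs, Akap3, Akap4, Smcp and Gsg1. None of 54 genes of the flagellar axoneme held it.

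**Figure D2:**
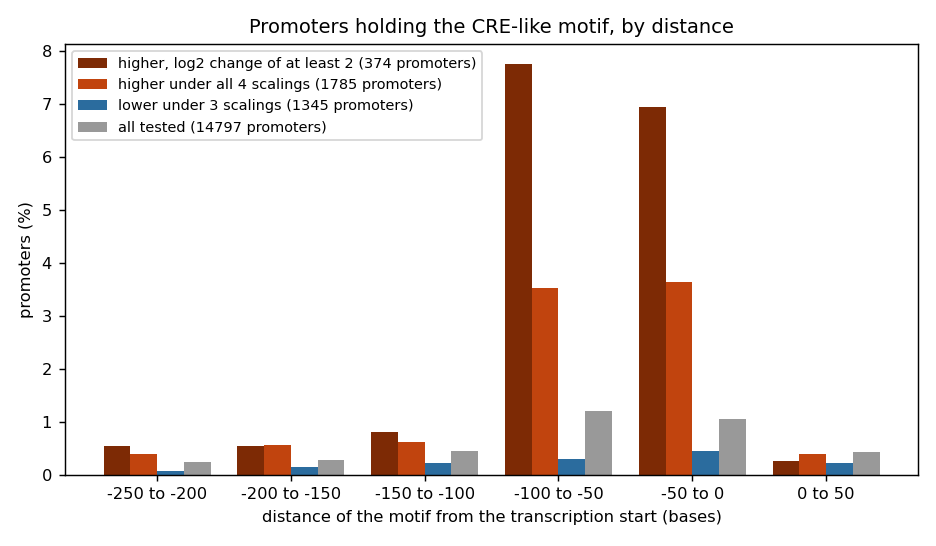
Share of promoters (y axis, %) that hold TGATGTCA on either strand, in bins of 50 bases from the transcription start (x axis), for genes higher by at least 2 log2 units, higher in all scalings, lower after 3 scalings, and all tested genes. The share of the first group is 7.75% and 6.95% in the 2 bins just before the start and below 1% in the others.

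The most abundant mRNAs changed places between the groups. Of the 10 genes with the highest mean FPKM in each group, 4 were in both: Tmsb10, Ybx2, Meig1 and Fabp9. Smcp, a cysteine-rich protein of the mitochondrial sheath of sperm (chromosome 3, 92583866 to 92589073, GRCm38), was the most abundant mRNA of the busulfan libraries. It had 6988, 13286 and 10910 FPKM in busulfan libraries and 1000, 2211 and 532.6 FPKM in control libraries. Both groups were far apart, and control replicate 2 was the highest control library, as for the protamines and transition proteins. Tnp2 had 7442, 10288 and 10199 FPKM in busulfan libraries and 595.3, 1927 and 375.2 in control libraries. Together Smcp, Tnp1, Tnp2, Prm1 and Prm2 took 6.64%, 8.13% and 7.96% of the FPKM sum in busulfan libraries, against 0.631%, 1.91% and 0.405% in control libraries. Odf2, of the outer dense fibres of the tail, had 1780, 2437 and 2060 FPKM in busulfan libraries and 781.7, 959.2 and 650.1 in control libraries (log2 change 1.40 ± 0.35 SE, adjusted p = 0.00775).

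Several of the most abundant germ cell mRNAs did not pass the test. Ybx2, an RNA-binding protein that stores mRNAs in spermatids, had 2582, 3958 and 3409 FPKM in busulfan libraries and 2247, 2589 and 1791 in control libraries. The groups overlapped by 1 library, and limma gave an adjusted p of 0.2. Ldhc, the lactate dehydrogenase of germ cells, had 1585, 1644 and 1757 FPKM in busulfan libraries against 1329, 1645 and 1244 in control libraries, a log2 change of 0.25 ± 0.30 (adjusted p = 0.472). Pabpc1, a poly(A)-binding protein, had a log2 change of 0.03 ± 0.28. Meig1 and Fabp9, both of late germ cells, had changes of 0.67 and 0.80 with adjusted p of 0.0916 and 0.0548. In control libraries Insl3, the peptide hormone of Leydig cells, was the second most abundant mRNA, and in busulfan libraries it had 935.4, 720.8 and 970.7 FPKM in busulfan libraries against 3519, 2542 and 4484 FPKM in control libraries. No gene with a mean of at least 5 FPKM in busulfan libraries was listed at 0 in every control library. The reverse held for Defb38, a beta-defensin of the epididymis, which was listed at 0 in busulfan libraries and had 0, 1.43 and 18.58 FPKM in control libraries, so that control replicate 3 set its mean.

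The 12 largest increases were taken among genes whose groups did not overlap and whose calls lasted without each library in turn. Predicted, histone and non-coding genes and those of low mean FPKM were passed over. The 12 were Zc2hc1b, Prm2, Tnp2, Tnp1, Arl9, Tppp2, Trp53tg5, Spata3, Tex37, Dnajb8, Spem1 and Ubqlnl. Zc2hc1b, a zinc finger protein, was lowest in abundance among them, with 28.15, 73.46 and 55.66 FPKM in busulfan libraries and 2.52, 7.59 and 0.76 in control libraries (log2 change 3.72 ± 0.63, adjusted p = 0.00381). Tex37 had 177.4, 214.2 and 226.3 FPKM in busulfan libraries against 16.55, 41.89 and 9.79 in control libraries, and Spem1, needed in mice to strip cytoplasm from the sperm head, had 440.2, 330.1 and 404.3 in busulfan libraries against 27.46, 104.5 and 19.42 in control libraries. The highest control value of each of these genes was that of control replicate 2. That it was below the lowest busulfan value follows from the rule that chose the genes. Arl9, Tppp2, Trp53tg5 and Spata3 had log2 changes between 3.36 and 3.47. Tnp1, the transition protein whose promoter is shown above, had 3832, 4962 and 5137 FPKM in busulfan libraries and 297.6, 1035 and 230.7 in control libraries.

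**Figure D3:**
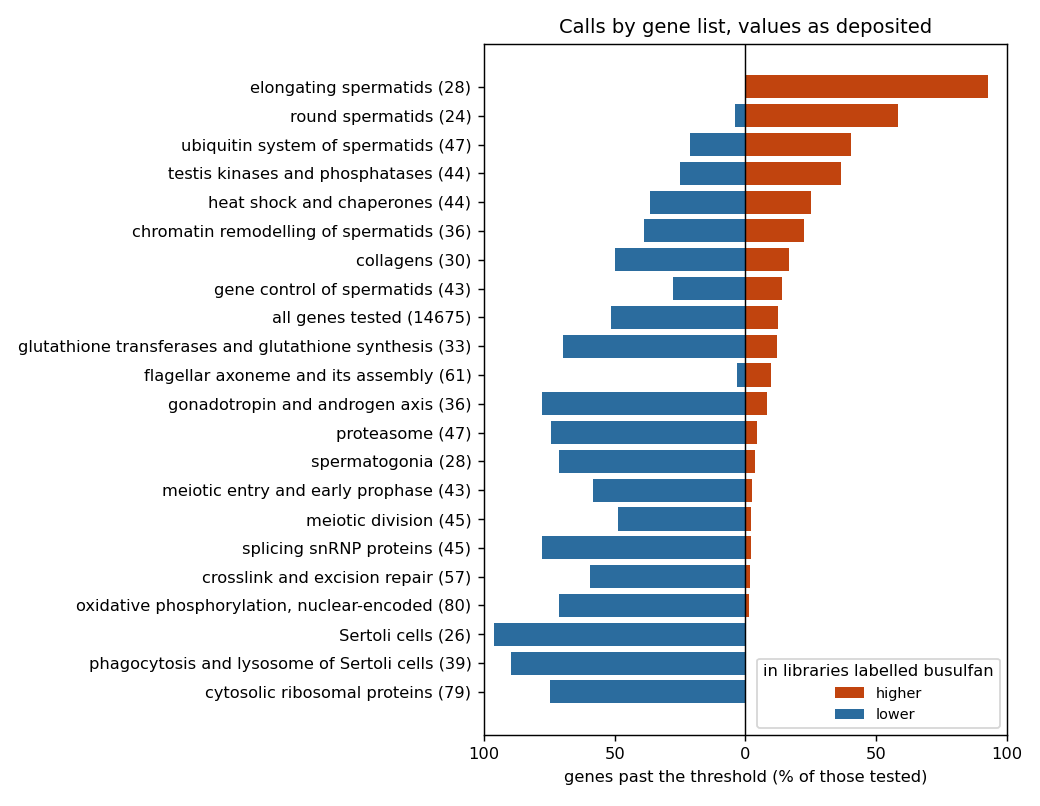
Share of tested genes past the threshold in each gene list with at least 24 tested genes (% on the x axis, higher in busulfan libraries to the right in orange, lower to the left in blue), as deposited, with the number tested in brackets. The bar for all genes reads 12.4% higher and 51.4% lower; the lists of elongating and round spermatids lie far to the right, and those of Sertoli cells and the lysosome to the left.

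Genes that remodel the chromatin of spermatids moved in both directions. Of 36 tested, 8 were higher, all 8 in all scalings, and 14 were lower, with a median 0.35 above that of all genes and between -0.16 as deposited and 1.32 after Sertoli scaling. Of the 14 lower genes, which are not named in this paragraph, 2 were also lower after quantile normalization and median scaling. The 8 higher genes act on or in the condensing nucleus. H1fnt, the linker histone of elongating spermatids (chromosome 15, 98255982 to 98257307), had 285.8, 367.8 and 367.6 FPKM in busulfan libraries and 32.08, 84.62 and 23.35 in control libraries (log2 change 3.05 ± 0.50, adjusted p = 0.00381). H2al2a, a histone variant that opens nucleosomes for the transition proteins, had 143.9, 67.15 and 96.34 FPKM in busulfan libraries against 6.72, 31.63 and 7.75 FPKM in control libraries. Histone variants of this family have near copies, so its value is uncertain. Hmgb4, a high-mobility-group protein of spermatids whose promoter is shown above, had 724.1, 821.3 and 802.8 FPKM in busulfan libraries and 84.15, 215.9 and 60.77 in control libraries (log2 change 2.90 ± 0.51). Cdyl, a chromodomain protein, and Chd5, a remodeller of histone removal, were higher by 1.98 ± 0.28 and 1.96 ± 0.39. Camk4, a kinase that phosphorylates protamine 2, was low, with 5.67, 7.23 and 6.25 FPKM in busulfan libraries and 1.67, 2.33 and 1.39 in control libraries, yet its groups were apart (log2 change 1.41 ± 0.24). Tssk6 and 1700024P04Rik, of the same list, were higher by 2.59 and 2.54. Brdt, the bromodomain reader that starts histone removal, had 176.6, 163.5 and 166.3 FPKM in busulfan libraries and 145.3, 159.8 and 134.3 in control libraries. Those groups were apart by a small margin, and the log2 change of 0.21 ± 0.23 had an adjusted p of 0.442.

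Kinases of the testis were divided too. Of 44 kinases, phosphatases and anchoring proteins tested, 16 were higher, 14 of them in all scalings, and 11 were lower, with a median 0.62 above that of all genes. Of all genes, 12.4% were higher and 51.4% lower as deposited. Of the 11 lower genes, which are not named in this paragraph, 1 was also lower after quantile normalization and median scaling. Tssk3, a testis-specific serine kinase, had 165.5, 169.3 and 161 FPKM in busulfan libraries and 25.11, 53.93 and 17.76 in control libraries (log2 change 2.47 ± 0.46, adjusted p = 0.00386). Tssk2 and Tssk1, neighbours on chromosome 16, were higher by 2.22 ± 0.44 and 1.55 ± 0.35. Akap1, which tethers protein kinase A to mitochondria, had 183.3, 166.6 and 165.3 FPKM in busulfan libraries against 27.86, 60.59 and 21.73 in control libraries. Dusp21, an X-linked dual-specificity phosphatase, had 23.29, 21.24 and 25.97 FPKM in busulfan libraries against 4.75, 6.22 and 2.02 in control libraries.

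The ubiquitin system of spermatids, which clears proteins during elongation, was divided as well. Of 47 tested, 19 were higher, all 19 in all scalings, and 10 were lower, with a median 0.69 above that of all genes. The list as matched also holds Tnp1, the transition protein, which is counted among the 19 but is not of this system. Ubqlnl, a ubiquilin of the testis, had 179.5, 159.9 and 174.4 FPKM in busulfan libraries and 12.92, 45.35 and 7.66 in control libraries (log2 change 3.28 ± 0.59). Asb17, an adaptor of a cullin ligase, was higher by 2.69 ± 0.50, and Klhl10, the adaptor of Cul3 that mice need for late spermatids, had 192.3, 173 and 197.8 FPKM in busulfan libraries against 55.49, 82.55 and 42.44 in control libraries (1.68 ± 0.32). Cul3 itself, a scaffold of all cells, had 180.3, 188.7 and 177.5 FPKM in busulfan libraries against 158.8, 171 and 147.9 in control libraries, and its change of 0.20 ± 0.16 did not pass (adjusted p = 0.31). Ubqln2, the X-linked ubiquilin of somatic cells, was lower at 6.07, 5.21 and 4.54 FPKM in busulfan libraries against 21.62, 12.85 and 21.95 in control libraries.

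Chaperones moved in both directions. Of 44 tested, 11 were higher, 10 of them in all scalings, and 16 were lower, with a median 0.46 above that of all genes, which was -0.01 after quantile normalization. Of the 16 lower genes, which are not named in this paragraph, 3 were also lower after quantile normalization and median scaling. Dnajb8, a J-domain co-chaperone (chromosome 6, 88222268 to 88223256), had 429.3, 600 and 525.4 FPKM in busulfan libraries and 37.5, 123.9 and 28.15 in control libraries (log2 change 3.31 ± 0.60). Dnajb7 and Dnajc5b, of the same family, were higher by 2.71 ± 0.44 and 2.31 ± 0.44. Pdilt, a disulphide isomerase of the spermatid endoplasmic reticulum, had 92.84, 97.85 and 100.3 FPKM in busulfan libraries against 35.98, 46.98 and 25.59 in control libraries (1.44 ± 0.35). Calr3, the calreticulin of germ cells, had 66.42, 73.41 and 76.3 FPKM in busulfan libraries against 8.4, 19.49 and 6.76 in control libraries. Bag1, a co-chaperone found in most cells, was higher by 1.10 ± 0.19.

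Most regulators of spermatid transcription and translation were not called. Of 43 tested, 6 were higher, 12 lower and 25 were not called, with a median 0.36 above that of all genes that became -0.14 after quantile normalization. Of the 12 lower genes, which are not named in this paragraph, 3 were also lower after quantile normalization and median scaling. Crem, whose protein binds the CRE, had 84.86, 79.3 and 79.49 FPKM in busulfan libraries and 56.15, 65.4 and 55.29 in control libraries. The groups did not overlap, but the log2 change of 0.46 ± 0.23 did not pass (adjusted p = 0.0923). Fhl5, its testis coactivator also known as ACT, did pass, with 107.7, 66.01 and 91.53 FPKM in busulfan libraries against 17.27, 34.53 and 11.49 in control libraries (2.13 ± 0.43, adjusted p = 0.00436). Sox30, a transcription factor that mice need for round spermatids, had 162.7, 221.9 and 205.7 FPKM in busulfan libraries against 64.51, 85.08 and 50.95 in control libraries (1.56 ± 0.36). Samd4, an RNA-binding repressor of translation, was higher by 2.19 ± 0.45, Hipk1, a kinase, by 1.04 ± 0.17 and Paip2, which holds back poly(A)-binding protein, by 0.57 ± 0.14. The sixth, Rfx3, a factor of ciliary genes, was higher by 0.58 ± 0.16, a call that ended without control replicate 3 (adjusted p = 0.0524).

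Most genes of the microtubule core of the tail were not called as deposited. Of 61 genes of the axoneme and its assembly, 53 were not called, 6 were higher and 2 were lower, with a median of 0.09 as deposited and 0.60 above that of all genes (0.26 on quantile-normalized values). Of the 61, 19 were higher and 0 lower under median scaling, and likewise under Sertoli scaling. In the list of elongating spermatids, which holds outer dense fibre and fibrous sheath genes, 26 of 28 were higher. Tekt5, a tektin filament protein, had 77.37, 66.18 and 76.5 FPKM in busulfan libraries and 17.58, 32.03 and 15.33 in control libraries (1.78 ± 0.37), and Ropn1, of the fibrous sheath and radial spokes, was higher by 1.75 ± 0.41. The calls of Dnah3, Cfap58, Tekt2 and Ift57, chosen after their values were seen, were lost without control replicate 3 (adjusted p = 0.0676, 0.0972, 0.0976 and 0.0869), and all but that of Dnah3 were lost without others too. Dnah1 and Dnah2, heavy chains of the dynein arms, had 13.26, 10.04 and 10.49 FPKM and 16.58, 13.77 and 15.3 FPKM in busulfan libraries against 13.85, 16.56 and 13.99 FPKM and 19.91, 23.4 and 21.05 FPKM in control libraries. Neither passed (adjusted p = 0.13 and 0.0574). Ift20 and Dnal1, of tail transport and dynein, were lower as deposited, with changes of -0.72 and -0.51 that became 0.76 and 0.97 after Sertoli scaling. A difference between the axoneme and the other lists was not tested.

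Germ cells replace many proteins of ordinary cells by a second gene expressed in the testis, often an intronless copy. A constant factor per library leaves the ratio of the 2 forms within that library unchanged, apart from the 1 added to each FPKM. For this reason 33 pairs were compared by their ratio. Quantile normalization is no such factor and can change the ratio. In 23 pairs the ratio of testis form to somatic form was higher in every busulfan library than in every control library, in 2 it was lower, and in 8 the groups overlapped. Groups did not overlap for 76.8% of all single genes, a share that rests on the scaling. The share among other pairs of genes was not taken, so the counts do not set these pairs apart. No p-value is given for a pair, since 3 libraries against 3 cannot give an exact permutation p below 0.10. The median difference of the log2 ratio was 0.98. Copies with near-identical sequence, such as Rpl10l and Rpl10, may share reads, and the rule by which the authors assigned them is not known here.

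With a pseudocount of 1, the largest shift among the 33 pairs was in glyceraldehyde-3-phosphate dehydrogenase, an enzyme of glycolysis. With a pseudocount of 0.1 it was in Hspa1l over Hspa1a (4.75, against 3.77 for Gapdhs over Gapdh), where Hspa1a did not pass the filter on low values. Gapdhs, the sperm form whose promoter is shown above, had 1466, 2094 and 1855 FPKM in busulfan libraries and 229.8, 529.5 and 130 in control libraries (log2 change 2.82 ± 0.58). Gapdh, the form of other cells, had 180.1, 180.9 and 196.5 FPKM in busulfan libraries and 379.3, 253.2 and 474.1 in control libraries. The log2 ratio of the pair was 3.02, 3.53 and 3.23 in busulfan libraries and -0.72, 1.06 and -1.86 in control libraries, so that the sperm form exceeded the other in 3 of 3 busulfan and in 1 of 3 control libraries. Capza3 over Capza1, both subunits that cap actin filaments, had 0.19, 0.12 and 0.45 in busulfan libraries and -2.66, -1.82 and -2.90 in control libraries, crossing 0 between the groups. Control replicate 2 had the highest control ratio in both of these pairs. In 5 pairs, Gapdhs/Gapdh, Capza3/Capza1, Rpl10l/Rpl10, Hspa2/Hspa8 and Rbmxl2/Rbmx, the testis form exceeded the somatic form in all busulfan libraries but not in all control libraries. Hspa1l over Hspa1a, Calr3 over Calr and Pgk2 over Pgk1 differed by 3.66, 3.33 and 2.52 log2 units.

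Which form of a pair was called depends on the scaling. As deposited, where 51.4% of all genes were lower, in 15 pairs the testis form was not called and the somatic form was lower, and in 4 the testis form was higher and the somatic form lower, in Gapdhs/Gapdh, Calr3/Calr, Capza3/Capza1 and Pgk2/Pgk1, whose somatic forms had changes of 0.54, 0.82, 0.88 and 0.46 after Sertoli scaling. The lower call of Gapdh was lost without busulfan replicate 2, control replicate 1 or control replicate 3 (adjusted p = 0.0514, 0.0541 and 0.0793), that of Calr without control replicate 1 (0.0605), and that of Capza1 without busulfan replicate 2 or 3 (0.0694 and 0.0632). No somatic form was higher, and 21 were lower as deposited. Hspa2, the chaperone of spermatocytes, had 420.4, 379 and 412.1 FPKM in busulfan libraries and 480.5, 500.3 and 382.8 in control libraries, with overlapping groups (log2 change -0.16 ± 0.25, adjusted p = 0.583). Its somatic partner Hspa8 had 144.7, 130.2 and 125 FPKM in busulfan libraries against 366, 249.4 and 423.8 in control libraries, and the ratio was higher in every busulfan library. Rpl10l had 87.95, 40.87 and 63.88 FPKM in busulfan libraries and 79.78, 96.87 and 78.94 in control libraries (adjusted p = 0.217), while the X-linked Rpl10 had 32.98, 20.17 and 29.81 in busulfan libraries against 90.98, 77.02 and 149.1 in control libraries. Not every pair shifted. Cstf2t over Cstf2, of mRNA 3′ end formation, had log2 ratios of -0.55, -0.41 and -0.70 in busulfan libraries and 0.63, 0.59 and 0.40 in control libraries. Eno4 over Eno1 was lower by 0.44 log2 units, with -2.96, -3.22 and -3.08 in busulfan libraries and -2.68, -2.36 and -2.92 in control libraries. Ldhc over Ldha had 2.09, 2.54 and 2.40 in busulfan libraries and 2.07, 2.09 and 1.91 in control libraries, where the groups met at 2.09. Tbpl1 over Tbp, of basal transcription, differed by 0.00 log2 units.

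**Figure D4:**
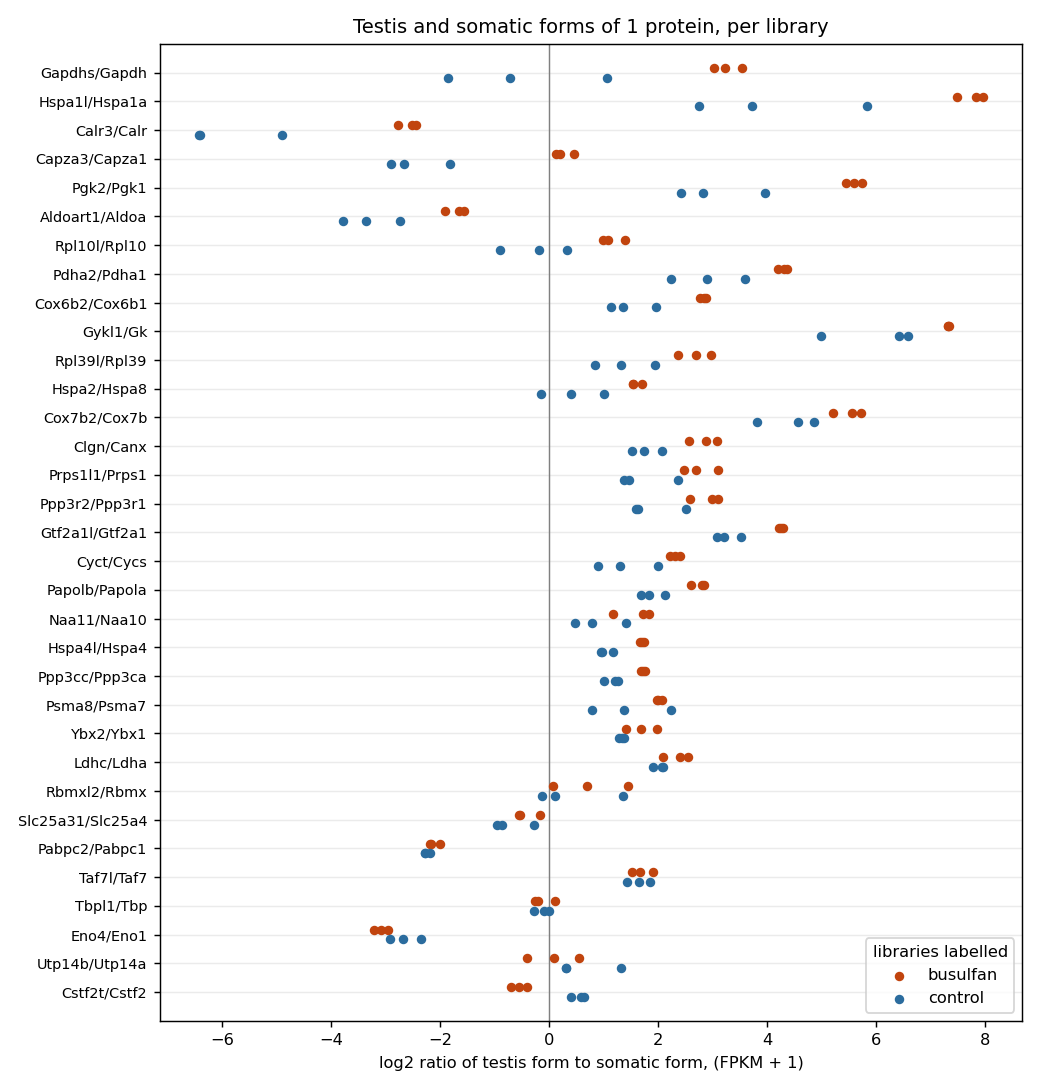
Log2 ratio of the testis form to the somatic form of 33 proteins (x axis, FPKM + 1) in each busulfan library (orange) and control library (blue), ordered by the difference between the groups. At the top, Gapdhs/Gapdh lies between 3.02 and 3.53 in busulfan libraries and between -1.86 and 1.06 in control libraries; at the bottom, Cstf2t/Cstf2 lies lower in busulfan libraries.

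The X and Y chromosomes are silenced during meiosis, and some of their genes, many in multiple copies, are switched on again in spermatids. A larger share of X-linked than of autosomal genes lay beyond 1 log2 unit, in both directions. Of 684 X-linked genes tested, 14.6% had a log2 change of at least 1 and 31.6% of at most -1, against 7.09% and 17.9% of 13771 autosomal genes. By limma 18.7% of X-linked genes were higher and 49.4% lower, and 12% and 52.1% of autosomal genes. The median level of X-linked genes minus the autosomal median was -0.79, -0.82 and -0.87 log2 units in busulfan libraries and -0.89, -1.06 and -0.94 in control libraries. By this measure the groups did not overlap and lay 0.14 apart. The median log2 change of single genes had the other order, with -0.63 for X-linked and -0.51 for autosomal genes. The largest X-linked increases were of H2al1a and of the predicted genes Gm10230, Gm6760, Gm614 and Gm28269, with log2 changes of 2.87, 3.43, 3.14, 3.10 and 3.05. That of Gm10230 was lost without any of the 3 busulfan libraries, control replicates 1 and 3, or any library labelled busulfan plus L.J. (adjusted p between 0.0517 and 0.17). The largest X-linked decreases were of Rps4x, Gm9112, Slc25a5, Pgrmc1 and Rpl10, with changes of -2.03, -1.99, -1.91, -1.87 and -1.87. Slc25a5, a carrier of ADP and ATP across the mitochondrial membrane, had 20.43, 8.27 and 13.92 FPKM in busulfan libraries and 58.79, 38.41 and 65.45 in control libraries.

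Y-linked genes were higher relative to the autosomes in busulfan libraries. The median of 127 tested Y-linked genes lay -0.98, -0.72 and -0.90 log2 units from the autosomal median in busulfan libraries and -1.84, -1.81 and -2.17 in control libraries. Of these genes 22.8% were higher and 5.51% lower as deposited, and 114 carry predicted or numbered symbols. Most of those belong to families of near-identical copies, among which reads cannot be assigned with certainty, and 16 tested genes of the table share all 12 values with another gene. Of the 13 others, 3 were higher and 4 lower. Rbm31y, an RNA-binding protein (chromosome Y, 17400761 to 17402718), had 7.38, 5.82 and 7.16 FPKM in busulfan libraries and 1.11, 1.94 and 0.44 in control libraries (log2 change 1.90 ± 0.29, adjusted p = 0.00381), and the predicted gene Gm21379 has identical values. Ddx3y, an RNA helicase of all male cells, had 3.46, 2.42 and 2.77 FPKM in busulfan libraries against 8.71, 6.53 and 11.11 in control libraries (-1.31 ± 0.34, which was 0.16 after Sertoli scaling). Zfy2 (0.54) and Sry (0.68) were higher and Kdm5d (-0.80), Uty (-0.73) and Uba1y (-0.53) lower, of which the last 3 became 0.68, 0.75 and 0.95 after Sertoli scaling. All 5 had low levels, with group means between 0.247 and 7.45 FPKM. Without control replicate 1 their adjusted p became 0.07, 0.0788, 0.119, 0.135 and 0.0768, and each call was also lost without at least 3 other libraries. Eif2s3y, a translation factor, had 33.38, 39.45 and 36.74 FPKM in busulfan libraries and 44.27, 32.95 and 45.54 in control libraries, with overlapping groups.

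**Figure D5:**
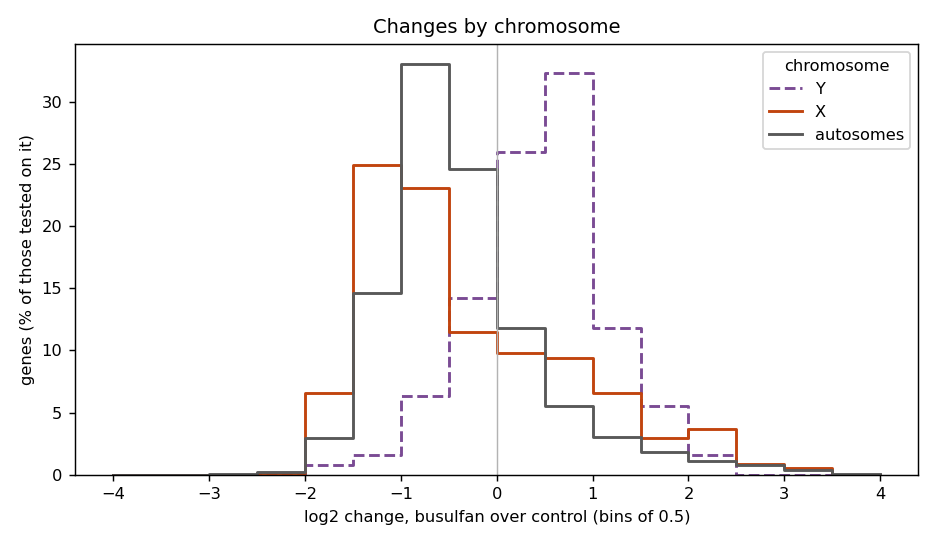
Share of tested genes (y axis, %) in bins of 0.5 of the log2 change of busulfan over control (x axis), for 127 Y-linked, 684 X-linked and 13771 autosomal genes. The X-linked curve is broader than the autosomal one on both sides, and the Y-linked curve is centred above 0, with a median of 0.51 against -0.51 for autosomes.

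Most genes of the ribosome, oxidative phosphorylation, the proteasome and splicing were lower as deposited, where 51.4% of all genes were. Relative to all genes, the medians of these 4 lists were -0.13, -0.11, -0.15 and -0.12 as deposited and -0.79, -0.56, -0.44 and -0.32 after quantile normalization. Of 79 cytosolic ribosomal protein genes, 59 were lower and 0 higher as deposited, with a median of -0.64 that became 0.84 after Sertoli scaling. The 4 X-linked members were the 4 largest decreases of the list. Rps4x had 18.73, 12.59 and 16.5 FPKM in busulfan libraries and 63.81, 47.16 and 101.8 in control libraries (-2.03 ± 0.43, adjusted p = 0.00469). Rpl39 and Rpl36a had changes of -1.55 ± 0.39 and -1.53 ± 0.34. Among the 75 other members the median was -0.62 and the range -1.40 to 0.17. Of 80 nuclear-encoded subunits of oxidative phosphorylation, 57 were lower and 1 was higher, with a median of -0.62 that became 0.86 after Sertoli scaling. Its 3 X-linked members, Ndufb11, Cox7b and Ndufa1, had changes between -1.53 and -1.36, and the 77 others a median of -0.61. The strongest change of that list was autosomal, in Cox8a, with 26.97, 19.24 and 25.08 FPKM in busulfan libraries against 80.86, 56 and 110.6 in control libraries. The 1 that was higher, Atp5mpl (0.48), lost its call without any of the 6 libraries compared here (adjusted p between 0.0522 and 0.137) and without busulfan plus L.J. replicate 3 (0.0513). Of 45 proteins of the splicing particles, 35 were lower, with a median of -0.63 that became 0.85 after Sertoli scaling, and Snrpn alone was higher (0.73 ± 0.14).

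Within the proteasome, subunits diverged. Of 47 genes, 35 were lower, with a median of -0.66 that became 0.82 after Sertoli scaling, and 2 were higher. Psme2, a subunit of the activator that interferon induces (chromosome 14, 55587440 to 55591101), had 5.39, 2.85 and 4.54 FPKM in busulfan libraries and 20.21, 15.73 and 29.25 in control libraries (-2.10 ± 0.42, adjusted p = 0.00435). Psmf1, an inhibitor of the proteasome, had 125.6, 130.4 and 140.7 FPKM in busulfan libraries against 29.04, 53.22 and 27.07 in control libraries (1.90 ± 0.32, adjusted p = 0.00381). Psma6, a subunit of the outer ring, had 277.8, 231.3 and 261.6 FPKM in busulfan libraries against 119.3, 148.7 and 111.2 in control libraries (1.02 ± 0.20), while Psma1 and Psma2 of the same ring had changes of -1.08 ± 0.24 and -1.27 ± 0.24. Equal amounts of these subunits enter each ring, and their mRNA moved in opposite directions as deposited, which Sertoli scaling turned into 2.50 for Psma6 and 0.40 and 0.21 for Psma1 and Psma2.

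Most genes of the hormone axis of the testis were lower as deposited, where 51.4% of all genes were. Of 36 genes of gonadotropin and androgen signalling, 3 were higher, 28 lower and 5 not called; their median of -1.19, or -0.68 relative to all genes, became 0.29 after Sertoli scaling. Lhcgr, the receptor of luteinizing hormone on Leydig cells (chromosome 17, 88716384 to 88792059), had 7.46, 5.1 and 7.09 FPKM in busulfan libraries and 26.77, 16.28 and 34 in control libraries (-1.78 ± 0.37, adjusted p = 0.00457). Fshr, the receptor of follicle-stimulating hormone on Sertoli cells, had 1.33, 1.16 and 0.9 FPKM in busulfan libraries against 6.37, 3.12 and 6.53 in control libraries (-1.53 ± 0.40). Inha, the alpha chain of inhibin that Sertoli cells secrete, had 45.44, 29.26 and 33.07 FPKM in busulfan libraries against 167.8, 96.27 and 184.5 in control libraries. Igfbp3, which binds insulin-like growth factors (chromosome 11, 7206086 to 7215498), had 1.05, 0.97 and 1.45 FPKM in busulfan libraries against 19.17, 6.76 and 14.83 in control libraries (-2.66 ± 0.65), and it was 1 of the 2 genes still called lower after Sertoli scaling (-1.18, adjusted p = 0.0229). The 3 higher genes were Nr4a1, an immediate early nuclear receptor, with 17.3, 18.93 and 19.04 FPKM in busulfan libraries against 6.52, 7.24 and 6.27 in control libraries, Cyp19a1, the aromatase that makes oestrogen, with 2.91, 3.12 and 3.06 in busulfan libraries against 1.13, 1.34 and 0.92 in control libraries, and Pde4a, a cyclic AMP phosphodiesterase, with 40.35, 58.11 and 49.37 in busulfan libraries against 25.79, 29.86 and 17.92 in control libraries. The adjusted p of Pde4a, 0.0173, became 0.0636 without busulfan replicate 2 and 0.0735 without control replicate 3.

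Genes of the Leydig and Sertoli cells themselves were nearly all lower as deposited. All 17 Leydig genes and 25 of 26 Sertoli genes tested were lower, with medians of -1.73 and -1.48, or -1.22 and -0.97 relative to all genes, which Sertoli scaling turned into -0.25 and, by construction, about 0.00. Cyp11a1, the enzyme that starts steroid synthesis, had 73.59, 49.48 and 77.7 FPKM in busulfan libraries and 283.1, 175.8 and 293.7 in control libraries (-1.88 ± 0.40). Sult1e1, which sulphates oestrogen, had 14.22, 15.72 and 19.96 FPKM in busulfan libraries against 65.89, 46.35 and 113 in control libraries. Aard and Cst12, both made in Sertoli cells, had changes of -1.80 ± 0.49 and -1.78 ± 0.51. In each of these 4 genes the groups were apart, and control replicate 2 was the lowest control library.

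Sertoli cells clear dying germ cells and shed cytoplasm by engulfing them, and most genes listed for this were lower as deposited. Of 39 genes of phagocytosis and the lysosome, 35 were lower and 0 higher. Their median was -1.26, or -0.76 relative to all genes, that became 0.21 after Sertoli scaling. Ctsb and Ctsd, proteases of the lysosome, had 45, 48.02 and 46.94 FPKM and 27.39, 19.49 and 26.02 FPKM in busulfan libraries against 182.6, 106.8 and 208.9 FPKM and 87.4, 59.12 and 107.8 FPKM in control libraries. Psap, from which the saposins are cut, had 79.45, 57.23 and 62.25 FPKM in busulfan libraries against 257.4, 148.5 and 279.7 in control libraries (-1.73 ± 0.47). Axl, a receptor for the lipid signal of dying cells, had a change of -1.60 ± 0.46. Cd36, a scavenger receptor also of fat and vessel cells, had 9.98, 6.4 and 7.72 FPKM in busulfan libraries against 29.36, 25.64 and 37.23 in control libraries (-1.82 ± 0.44). Macrophages engulf too, and 1 of their 21 tested genes was higher and 16 were lower; their median was -0.52 relative to all genes that became 0.45 in itself after Sertoli scaling. Lyz2, a lysozyme of macrophages, had 9.67, 7.19 and 10.4 FPKM in busulfan libraries and 33.1, 27.13 and 64.07 in control libraries, and Tyrobp, a signalling adaptor, had 1.93, 1.55 and 1.85 in busulfan libraries against 9.52, 6.7 and 12.58 in control libraries.

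Busulfan is cleared by joining it to glutathione, a step carried out by glutathione transferases. Of 33 genes of these enzymes and of glutathione synthesis, 23 were lower, 4 higher and 6 not called, with a median of -0.93, or -0.42 relative to all genes, that became 0.55 after Sertoli scaling. The shares among all genes as deposited were 51.4% lower and 12.4% higher. Gsta3 had 12.49, 5.93 and 7.74 FPKM in busulfan libraries and 28.64, 38.64 and 53.3 in control libraries (-2.10 ± 0.51, adjusted p = 0.00688). Mgst1, a microsomal member, had 20.86, 12.54 and 15.7 FPKM in busulfan libraries against 72.45, 48.28 and 79.07 in control libraries (-1.96 ± 0.44). Gstm6 and Gsta2 had changes of -1.77 ± 0.50 and -1.57 ± 0.43. Members of the alpha and mu classes are alike in sequence, so values of single members are uncertain. Gstt4, a theta class member, had 189.2, 183.4 and 211.1 FPKM in busulfan libraries against 46.49, 80.18 and 34.97 in control libraries (1.91 ± 0.38, adjusted p = 0.00427). Gstcd, Mgst2 and Gsto2 were higher by 1.38, 1.10 and 0.68. The adjusted p of Gsto2, 0.018, became 0.0639 and 0.0683 without control replicates 1 and 3.

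Of the lists of earlier germ cells, that of spermatogonia lay below all genes and the 2 of meiosis lay near all genes. Of 28 genes of spermatogonia, 1 was higher and 20 were lower as deposited, where 51.4% of all genes were lower. After quantile normalization and median scaling too, 5 of the 28 were lower, against 8.99% of all genes. The list median was -0.88, or -0.37 relative to all genes, and 0.59 in itself after Sertoli scaling. For 43 genes of meiotic entry and early prophase, 25 lower and 1 higher, the median was -0.04 relative to all genes. For 45 genes of the meiotic divisions, 22 lower and 1 higher, it was 0.09, and -0.15 with no filter on low values. In itself it became 0.93 and 1.06 for the last 2 lists after Sertoli scaling. The repair of crosslinks and bulky damage, the kind busulfan makes, had 34 of 57 genes lower and 1 higher, with a median of -0.03 relative to all genes, and 0.94 in itself after Sertoli scaling. Tex12, of the synaptonemal complex, had 21.2, 14.84 and 15.46 FPKM in busulfan libraries and 36.61, 33.03 and 31.69 in control libraries. Trp53, which encodes p53, had 8.12, 8.75 and 7.44 FPKM in busulfan libraries against 23.3, 16.11 and 25.23 in control libraries (-1.29 ± 0.33), and Ercc2, a helicase of excision repair, had 6.61, 5.94 and 4.74 in busulfan libraries against 13.04, 12.16 and 13.7 in control libraries. Tex12, Trp53 and Ercc2 turned to 0.53, 0.19 and 0.42 after Sertoli scaling. Ccna1, the cyclin of late spermatocytes, had 100.4, 100.9 and 84.67 FPKM in busulfan libraries against 86.83, 112.2 and 97.57 in control libraries, with overlapping groups and a change of -0.05 ± 0.25.

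Single genes ran against the rest of their list, and their values were higher in all scalings. Kif2c, a kinesin that takes microtubules apart, had 108.2, 112.7 and 120 FPKM in busulfan libraries and 26.88, 46.95 and 24.59 in control libraries (1.82 ± 0.34), in the list of meiotic divisions. Syce2, of the synaptonemal complex, had 157.3, 123.8 and 164.7 FPKM in busulfan libraries against 51.46, 75.93 and 54.12 in control libraries (1.29 ± 0.22). Polk, a polymerase that copies damaged DNA, had 16.05, 17.74 and 17.28 FPKM in busulfan libraries against 10.45, 12.12 and 11.28 in control libraries (0.55 ± 0.14). Among somatic lists, Actg2, listed for the muscle-like cells around the tubule, had 183.5, 178.8 and 183.4 FPKM in busulfan libraries against 26.86, 61.06 and 49.85 in control libraries (2.04 ± 0.38), where 11 of 13 tested genes of its list were lower. Lipe, the hormone-sensitive lipase listed for fat, had 107.5, 107.7 and 111.4 FPKM in busulfan libraries against 13.15, 36.82 and 13.28 in control libraries, and Adig, of the same list, had 24.3, 20.13 and 20.22 in busulfan libraries against 3.58, 8.05 and 3.43 in control libraries. Cst8, a cystatin listed for the epididymis, had 164.4, 142.8 and 154.3 FPKM in busulfan libraries against 21.78, 51.66 and 23.35 in control libraries. Each of these 7 genes kept its call without each library in turn. Collagens as a list lay near all genes. Of 30 tested, 15 were lower and 5 higher, where 51.4% and 12.4% of all genes were, and their median was 0.01 relative to all genes. The 5 higher ones, Col22a1, Col9a3, Col27a1, Col26a1 and Col20a1, changed by 0.86 to 1.80. Col22a1 had 56.19, 50.44 and 60.92 FPKM in busulfan libraries against 16.67, 19.94 and 10.74 in control libraries, the highest level of the 5.

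The 12 largest decreases were taken by the same rule as the increases, and several of them varied widely between libraries. The rule left out 4 genes called lower by at least 3 log2 units, of which 0 kept the call without each library in turn. Of the 12, 9 had a mean of at most 5 FPKM in busulfan libraries. Vgll2, a transcription cofactor, had 0.07, 0.64 and 11.04 FPKM in busulfan libraries and 24.29, 14.21 and 22.3 in control libraries (-2.91 ± 0.70, adjusted p = 0.00678), and busulfan replicate 3 alone came near the control range. Ibsp, a matrix protein of bone, had 0.2, 0.57 and 1.31 FPKM in busulfan libraries against 11.56, 2.67 and 30.8 in control libraries. Car3 and Cfd, both abundant in fat, had 4.86, 1.65 and 1.93 FPKM and 0.85, 1.4 and 0.68 FPKM in busulfan libraries against 7.64, 19.06 and 77.08 FPKM and 3.25, 8.79 and 39.77 FPKM in control libraries. Control replicate 3 was by far the highest for both. The list of 15 fat markers, of which 12 passed the filter, summed to 273, 260 and 272 FPKM in busulfan libraries and to 169, 257 and 439 FPKM in control libraries. These sums include Lipe and Adig, given above, and so rest in part on 2 genes that ran against the list. The log2 median of the 12, minus that of all genes, was -0.32, -0.68 and -0.81 in busulfan libraries. In control libraries it was -1.36, -0.13 and 0.06. Of the 12, 2 were higher, 7 lower and 3 not called, and Adipoq, the defining hormone of fat cells, had 10.35, 7.73 and 9.94 FPKM in busulfan libraries and 2.12, 6.86 and 9.74 in control libraries. Bhmt, a methyltransferase of the methionine cycle, was even within each group, with 34.2, 35.66 and 35.75 FPKM in busulfan libraries against 156.7, 142.5 and 164.3 in control libraries (-2.10 ± 0.52), and Mt3, a metallothionein, had 4.95, 2.47 and 1.86 in busulfan libraries against 19.18, 15.89 and 21.06 in control libraries. Scd1, which desaturates fatty acids, Gsn, which severs actin, Cpe, which trims peptide hormones, and Wfdc1 had changes between -2.40 and -2.21. Hrg, a plasma protein, had 4.16, 0.04 and 0 FPKM in busulfan libraries against 8.07, 4.62 and 7.92 in control libraries.

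The same question can be put to libraries that share none with this comparison, by setting the 3 labelled busulfan plus L.J. against the 3 labelled L.J. There 7556 genes (51.5%) passed. Of the 1814 genes higher in busulfan against control, 1811 had the same direction and 1548 (85.3%) also passed, with a median log2 change of 1.02 with L.J. and 1.17 without. Of the 7536 that were lower, 7488 had the same direction and 5539 (73.5%) passed, with medians of -0.71 and -0.86. No gene passed in opposite directions. Over all genes the median log2 change with L.J. was -0.40, and the share of all genes with the same direction in both comparisons was not taken. Both comparisons come from 1 fit with a shared estimate of the spread of each gene, so their calls are not independent. The interaction of both treatments passed for 0 genes by limma, with 182 at an unadjusted p under 0.05 among 14675, so a difference between the 2 settings was not detectable here for any gene (1 gene without busulfan replicate 3). Tnp2 was higher by 2.28 with L.J. and by 3.61 without, and Rps4x had changes of -1.32 and -2.03. Some of the largest decreases named above were not seen with L.J. Vgll2, Ibsp, Car3 and Hrg had changes of 0.91, 1.28, 0.61 and 0.61 there, none past the threshold, and Bhmt and Mt3 had -0.43 and -0.33 (adjusted p = 0.497 and 0.633). Leydig genes had a list median of -0.81 with L.J. and -1.73 without, and Cyp11a1 had -0.45 (adjusted p = 0.345). Sertoli genes had medians of -1.38 and -1.48. Neither difference was tested beyond the interaction of single genes.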

How the data were processed

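RNA was measured in 12 testis libraries, 3 in each of 4 groups. The deposited FPKM values are the authors' fragment counts scaled to transcript length and library size, in 1 table of all libraries. Bowtie 0.12.2 and mm10 are named per the submitters' processing notes; the counting step is not given in the sources used here, and the depth is unknown, so no counting interval is given. Genes with at least 1 FPKM in at least 3 libraries were tested on log2(FPKM + 1), which understates changes of low genes. limma 3.58.1 (R 4.3.3, trend) fitted the 4 groups together, with 8 residual degrees of freedom, and p-values were adjusted by Benjamini-Hochberg over all 14675 genes. The fit was tested on simulated data. Alternatives were quantile, median and Sertoli-marker scaling, other filters and pseudocounts, a 2-group fit and each library left out. Tables and figures used Python 3.11.15 and matplotlib 3.10.9. Members and gene lists were chosen with earlier results of these data known.

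Genes were named by rule. These were the 12 largest changes in each direction that did not overlap between groups and lasted without each library, the first 2 members of each list, up to 4 of its largest lasting changes, members against their list, the 10 most abundant genes of each group, genes at 0 in 1 group, all pairs, the 5 largest changes on X in each direction, and Y genes. For the 12 largest changes, predicted, histone and non-coding genes and those with a mean under 5 FPKM in the higher group were passed over. Other genes were chosen after their values were seen: Akap3, Akap4, Gsg1, Dnah3, Cfap58, Tekt2, Ift57 and any further member given only beside its list. Some pairs of testis and somatic forms are not reported here.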

Additional observations from a re-analysis of the deposited data

How the results depend on the processing

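The number of genes called depended on the scaling between libraries. It was 9350 as deposited, 5209 after quantile normalization, 4519 after median scaling, 4324 after Sertoli scaling and 3715 with a log2 change of at least 1. Higher calls numbered 3100, 4322 and 1091 after median scaling, Sertoli scaling and that fold limit, and lower calls 2761, 1419, 2 and 2624 after quantile, median and Sertoli scaling and that fold limit. Leaving out 1 library gave 5842 to 10909 calls, 1345 to 2272 higher and 4497 to 8637 lower, the fewest without control replicate 3. The median change of all genes was -0.27 with no filter, -0.29 with a pseudocount of 5, -0.16, 0.05 and 0.97 after quantile, median and Sertoli scaling. The interaction gave 0 to 1 genes, the 1 without busulfan replicate 3. The replicate numbers did not pair the samples, with correlations of same-numbered libraries between -0.12 and -0.01, and a replicate block gave 9591 calls. The forms TGATGTCA and TGACTTCA lay in 10.8% and 2.66% of genes higher in all scalings, against 4.14% and 1.44% of all tested genes. For the consensus these shares were 3.33% and 3.3%.

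Of the ratio shifts, 23 to 27 were higher when 1 library was left out, and the shifts of X and Y stayed between 0.09 and 0.18 and between 0.96 and 1.14. List medians moved beyond their spread in 61 of 666 alternative values. A named gene counted as reversed if it was called and its sign changed, or if it was uncalled and passed with the opposite sign. Uncalled genes whose sign changed without passing were not counted. Of 3944 alternative values of the named genes, 27 were reversed in this sense. After Sertoli scaling these were Calr 0.82, Capza1 0.88, Cstf2t 0.74, Ddx3y 0.16, Dnal1 0.97, Eif2s3y 1.33, Ercc2 0.42, Gapdh 0.54, Hspa8 0.14, Ift20 0.76, Kdm5d 0.68, Ndufa1 0.12, Pgk1 0.46, Psma1 0.40, Psma2 0.21, Rbmx 0.43, Tex12 0.53, Trp53 0.19, Uba1y 0.95 and Uty 0.75. After quantile normalization they were Dnal1 0.08, Pabpc1 -0.85, Tmsb10 -0.95, Uba1y 0.06 and Ybx2 -1.07, and after median scaling Dnal1 0.05 and Uba1y 0.03. The cause was not tested. The depth of the libraries is unknown, so counting error could not be separated from other spread.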
